A study of Mus musculus with 15 samples.

Results

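The genes described here are 10 components and outputs of the circadian clock: Arntl, Clock, Per1, Per2, Per3, Cry1, Nr1d1, Nr1d2, Dbp and Tef. They were taken by symbol from a fixed list, with no threshold on their values, and are 10 of the 24411 symbols in the deposited tables. That list was chosen with earlier results of these data known, so its counts beside all genes are a description only. All 10 had enough reads to be tested, among 14098 genes that did. Poly-A RNA was sequenced from fresh frozen livers of male FVB/NJ mice in 5 groups of 3 libraries. The first group was wild-type FVB liver. The second group, called the triple group here, carried S45Y-CTNNB1, G31A-NFE2L2 and hMET together. The remaining groups carried a pair each: S45Y-CTNNB1 with hMET (the CTNNB1-MET group), S45Y-CTNNB1 with G31A-NFE2L2 (the CTNNB1-NFE2L2 group), and G31A-NFE2L2 with hMET (the NFE2L2-MET group). S45Y-CTNNB1 is a mutant form of beta-catenin, the effector of Wnt signalling, and G31A-NFE2L2 a mutant form of NRF2, a transcription factor of the oxidative stress response. MET is the receptor for hepatocyte growth factor. The labels do not give the mice's age, the clock time of harvest, the lighting or feeding schedule, the vector or promoter, or the time after delivery. They also do not say that the libraries of a group came from separate animals, and if they did not, the p-values cover no more than the spread between the libraries, which may be technical.

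In mouse liver, Arntl (also called Bmal1) and Clock form the heterodimer that switches on genes holding E-box motifs. Among those genes are Per1, Per2, Per3 and Cry1, whose proteins return to the nucleus and repress the heterodimer, and Nr1d1 and Nr1d2 (REV-ERB alpha and beta), nuclear receptors that repress Arntl. Dbp and Tef are bZIP transcription factors that carry the rhythm to output genes through D-box motifs. Because these transcripts oscillate over the day, a level from one harvest reports the phase of the cycle and its amplitude together. Where harvest time is unknown, these cannot be told apart, and in whole tissue fewer cells of a type and less RNA per cell cannot be told apart either.

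Counts assigned to genes ranged from 14084343 to 20702618 per library. All 6 hepatocyte markers checked against the liver label were expressed, with a summed level of at least 28094 CPM in every library. CPM are counts scaled to library size, here by TMM, which corrects for differences in RNA composition. A library of the wild-type group and one of the triple group stood apart in the clock genes. Wild-type replicate 3 was the library farthest from the other members of its group for 7 of the 10 genes, and more than 2-fold from them for 5. Triple replicate 1 was farthest for 7 genes and more than 2-fold away for 3. Wild-type replicate 3 is also 1 of 3 libraries marked as added in their file names, with triple replicate 3 and CTNNB1-MET replicate 3; what "added" refers to is not stated. For the 10 clock genes, calls lost without wild-type replicate 3, without triple replicate 1 or without the 3 added libraries are named with the gene.

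Short windows at the start sites were searched for the motifs through which the loop works. Sites outside these windows were not searched, so a motif missing here may lie elsewhere in the gene. The windows ran from 250 bases before to 50 after each start site (RefSeq, GRCm38.p6), and 9 of the 10 members had one or more, 14 windows in all; Per2 was not matched. Both strands were searched. The E-box CACGTG, bound by the Arntl and Clock dimer, was in windows of Per1, Cry1 and Tef and in 7.15% of all 32851 promoters. The E-box-like CACGTT was in windows of Cry1 and Nr1d1 (4.68% of promoters). The D-box TTANGTAA, the element read by Dbp and Tef, occurred in 1 member, Per3, as 2 copies (2.32%). The RORE core TAGGTCA, the site of Nr1d1 and Nr1d2, was in 1 member, Arntl (2.61%), and the CRE TGACGTCA in 0 members (1.79%). A match is a description of letters, not evidence of binding. The 2 stretches upstream of Cry1 and Per3 are printed because each holds 2 motifs close together, and short sites of Per1, Nr1d1, Tef and Arntl because they place the dimer's motif in a repressor, a nuclear receptor and an output gene, and the receptor's motif in Arntl. Capitals mark the motif, on the gene's strand. Cry1 is chr10:85185065-85185304 on the minus strand, with the E-box-like motif before the E-box, and Per3 is chr4:151044666-151044915 on the minus strand. Per1 is chr11:69098773-69098798 (plus), Nr1d1 chr11:98775390-98775415 (minus), Tef chr15:81802536-81802561 (plus) and Arntl chr7:113207531-113207557 (plus).
Cry1: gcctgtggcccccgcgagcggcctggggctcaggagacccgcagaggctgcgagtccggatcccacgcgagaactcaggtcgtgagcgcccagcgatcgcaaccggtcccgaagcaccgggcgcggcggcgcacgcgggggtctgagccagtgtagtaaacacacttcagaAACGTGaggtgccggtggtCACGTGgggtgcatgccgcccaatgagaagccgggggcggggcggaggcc
Per3: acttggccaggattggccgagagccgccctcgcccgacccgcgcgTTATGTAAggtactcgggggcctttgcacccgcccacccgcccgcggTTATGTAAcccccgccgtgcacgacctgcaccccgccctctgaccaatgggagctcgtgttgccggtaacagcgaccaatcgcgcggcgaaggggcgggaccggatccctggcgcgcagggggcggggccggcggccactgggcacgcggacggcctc
Per1: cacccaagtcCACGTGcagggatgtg
Nr1d1: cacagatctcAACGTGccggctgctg
Tef: gctgtggctcCACGTGctgcagctgg
Arntl: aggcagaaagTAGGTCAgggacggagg

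Across the 7 comparisons the study's groups imply, the most clock genes were called in 2 of the 4 that include the triple group. Against wild type this lead was lost without triple replicate 1, with 4 genes called in the triple group and 5 in CTNNB1-NFE2L2. Without wild-type replicate 3 and triple replicate 1 together, 6 were called in each. In the triple group these were 5 lower genes and 1 higher, Arntl, and in CTNNB1-NFE2L2 6 lower and 0 higher. Against wild-type liver 7 of the 10 genes fell in the triple group and 0 rose: Per1, Per2, Per3, Nr1d1, Nr1d2, Dbp and Tef. The same comparison called 49.9% of all tested genes, 26.5% as higher and 23.4% as lower. The members' median log2 fold change was -0.83, and the median over all genes -0.02. Against CTNNB1-MET, 7 genes were again lower in the triple group and 0 higher (33.8% of all genes called, 18.4% higher and 15.4% lower; member median -0.98, all genes -0.01). In CTNNB1-NFE2L2 against wild type, 3 fell (Nr1d1, Nr1d2 and Tef), with 48.7% of all genes called, 24.5% higher and 24.2% lower (medians -0.72 and -0.01). In NFE2L2-MET against wild type, Per2 rose and Nr1d1 fell (23.4% called; 13.5% higher and 9.89% lower; medians -0.28 and 0.00). Against NFE2L2-MET, Per2 and Tef were lower in the triple group (30.7% called, 16.4% higher and 14.3% lower; medians -0.76 and 0.01). In 2 comparisons edgeR's quasi-likelihood test called 0 members. For CTNNB1-MET against wild type (17.2% of all genes called, 11% higher and 6.22% lower; medians 0.06 and 0.00), 3 members had an unadjusted p under 0.05 and DESeq2 called 0. For the triple group against CTNNB1-NFE2L2 (25% called, 13.1% higher and 11.8% lower; medians -0.26 and 0.03), 0 members had an unadjusted p under 0.05 and DESeq2 called 0. The comparisons against wild type share the wild-type libraries, and 4 comparisons share the triple libraries. All calls are at an adjusted p under 0.05 over 14098 genes.

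**Figure D1:**
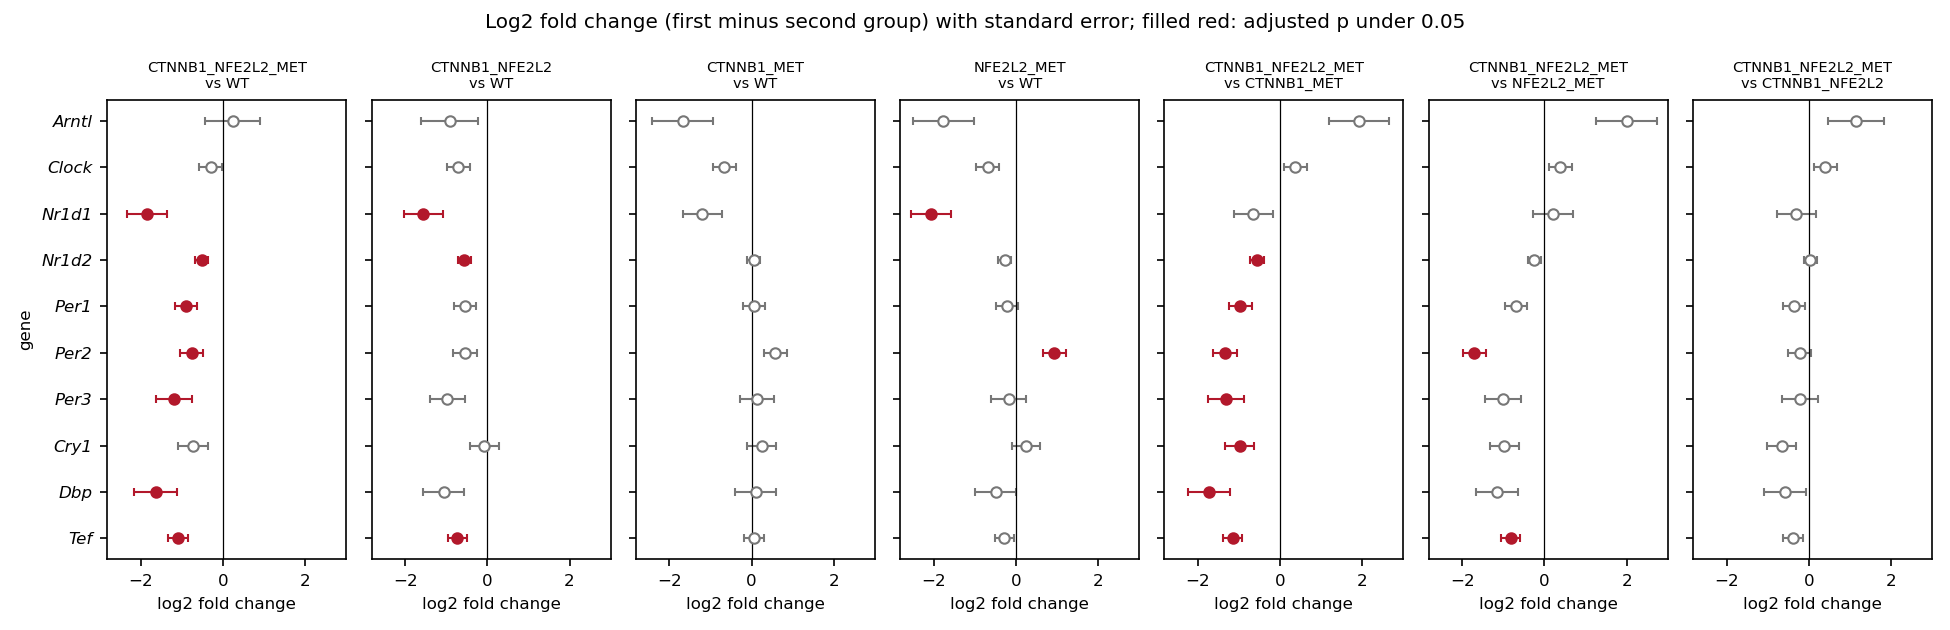
Log2 fold change of the 10 clock genes in 7 comparisons, with bars of 1 standard error and filled red points where the adjusted p was under 0.05. The triple group lies to the left of 0 for 9 of 10 genes against wild type, and no member passed the test in CTNNB1-MET against wild type or in the triple group against CTNNB1-NFE2L2.

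These counts depended on single libraries. For the triple group against wild type, 7 became 3 without wild-type replicate 1 and 4 without triple replicate 1 or 2. Against CTNNB1-MET, 7 became 3 without CTNNB1-MET replicate 3, 4 without triple replicate 1 or 2. Without the 3 added libraries, 4 were lower in that comparison and 1, Arntl, was higher. For CTNNB1-NFE2L2 against wild type, 3 became 1 without CTNNB1-NFE2L2 replicate 2, and 5 without wild-type replicate 2, wild-type replicate 3 or triple replicate 1. For NFE2L2-MET against wild type, 2 became 1 without wild-type replicate 3 or any 1 NFE2L2-MET library, and 4 without wild-type replicate 2. For the triple group against NFE2L2-MET, 2 became 6 without wild-type replicate 3, 5 without wild-type replicate 2 and 1 without NFE2L2-MET replicate 2. The 0 calls in CTNNB1-MET against wild type became 2 without wild-type replicate 2, and 1 without CTNNB1-MET replicate 3 or CTNNB1-NFE2L2 replicate 1. The 0 calls against CTNNB1-NFE2L2 became 2 without wild-type replicate 3. Calls that held whichever of the 15 libraries was left out, and under all 9 other settings tried, were Tef in the triple group against wild type and against CTNNB1-MET, Per2 in the triple group against CTNNB1-MET and against NFE2L2-MET, and Nr1d1 in NFE2L2-MET against wild type.

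The activators Arntl and Clock were called in 0 of the 7 comparisons. Arntl (chr7:113207465-113314126, plus strand; GRCm38, GENCODE M21) was scarce: its wild-type libraries held 3.02, 0.890 and 14.1 CPM, the last from 220 reads and the middle one from 15. Triple libraries held 10.3, 5.77 and 5.21 CPM of Arntl. The wild-type range thus spans every other library of the study. The CTNNB1-MET libraries gave 1.59, 2.62 and 1.46 CPM, CTNNB1-NFE2L2 4.59, 2.93 and 1.95, and NFE2L2-MET 1.59, 1.996 and 1.72. All 3 triple libraries lay above all libraries of the 3 groups with paired alleles. The log2 difference was 2.0 ± 0.73 (SE) against NFE2L2-MET (adjusted p = 0.0568), 1.92 ± 0.73 against CTNNB1-MET (0.0610) and 1.16 ± 0.68 against CTNNB1-NFE2L2 (0.243), so none passed. The difference between triple and wild type was 0.24 ± 0.67 (0.797). Without wild-type replicate 3 the Arntl differences passed in all 4: 1.89 against wild type (0.00582), 2.0 against NFE2L2-MET (0.00257), 1.92 against CTNNB1-MET (0.00296) and 1.16 against CTNNB1-NFE2L2 (0.0425). Total-count scaling also called Arntl higher in the triple group against NFE2L2-MET and CTNNB1-MET, as did DESeq2. Without wild-type replicate 2, Arntl passed as lower than wild type in CTNNB1-MET (-2.21, 0.0182), NFE2L2-MET (-2.29, 0.0115) and CTNNB1-NFE2L2 (-1.43, 0.0419), and as higher in the triple group than in NFE2L2-MET (0.00972) and CTNNB1-MET (0.0106).

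Clock (chr5:76209868-76304792, minus strand) varied less. Its wild-type libraries held 31.1, 26.9 and 69.8 CPM, and the triple libraries 33.9, 33.6 and 36.1. Wild-type replicate 3 was again the high one, as it was for Arntl. In the other groups Clock ranged from 22.1 to 32.8 CPM over 9 libraries. The triple and wild-type ranges overlapped, and the log2 difference was -0.30 ± 0.28 (adjusted p = 0.392). Against CTNNB1-NFE2L2, wild type was higher by a margin that missed the threshold (-0.71 ± 0.28, adjusted p = 0.0519). It passed without wild-type replicate 1 (-0.89, 0.0259), wild-type replicate 2 (-0.94, 0.00942) or CTNNB1-NFE2L2 replicate 1 (-0.91, 0.0333). Without wild-type replicate 3 the triple group passed as higher than NFE2L2-MET (0.39, 0.0403), CTNNB1-MET (0.36, 0.0482) and CTNNB1-NFE2L2 (0.41, 0.0377), and the sign against wild type turned to 0.26. Without wild-type replicate 2, Clock also passed as lower than wild type in CTNNB1-MET (-0.93, 0.0300) and NFE2L2-MET (-0.94, 0.0204). For both activators, the standing against wild type changed with the wild-type library left out.

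**Figure D2:**
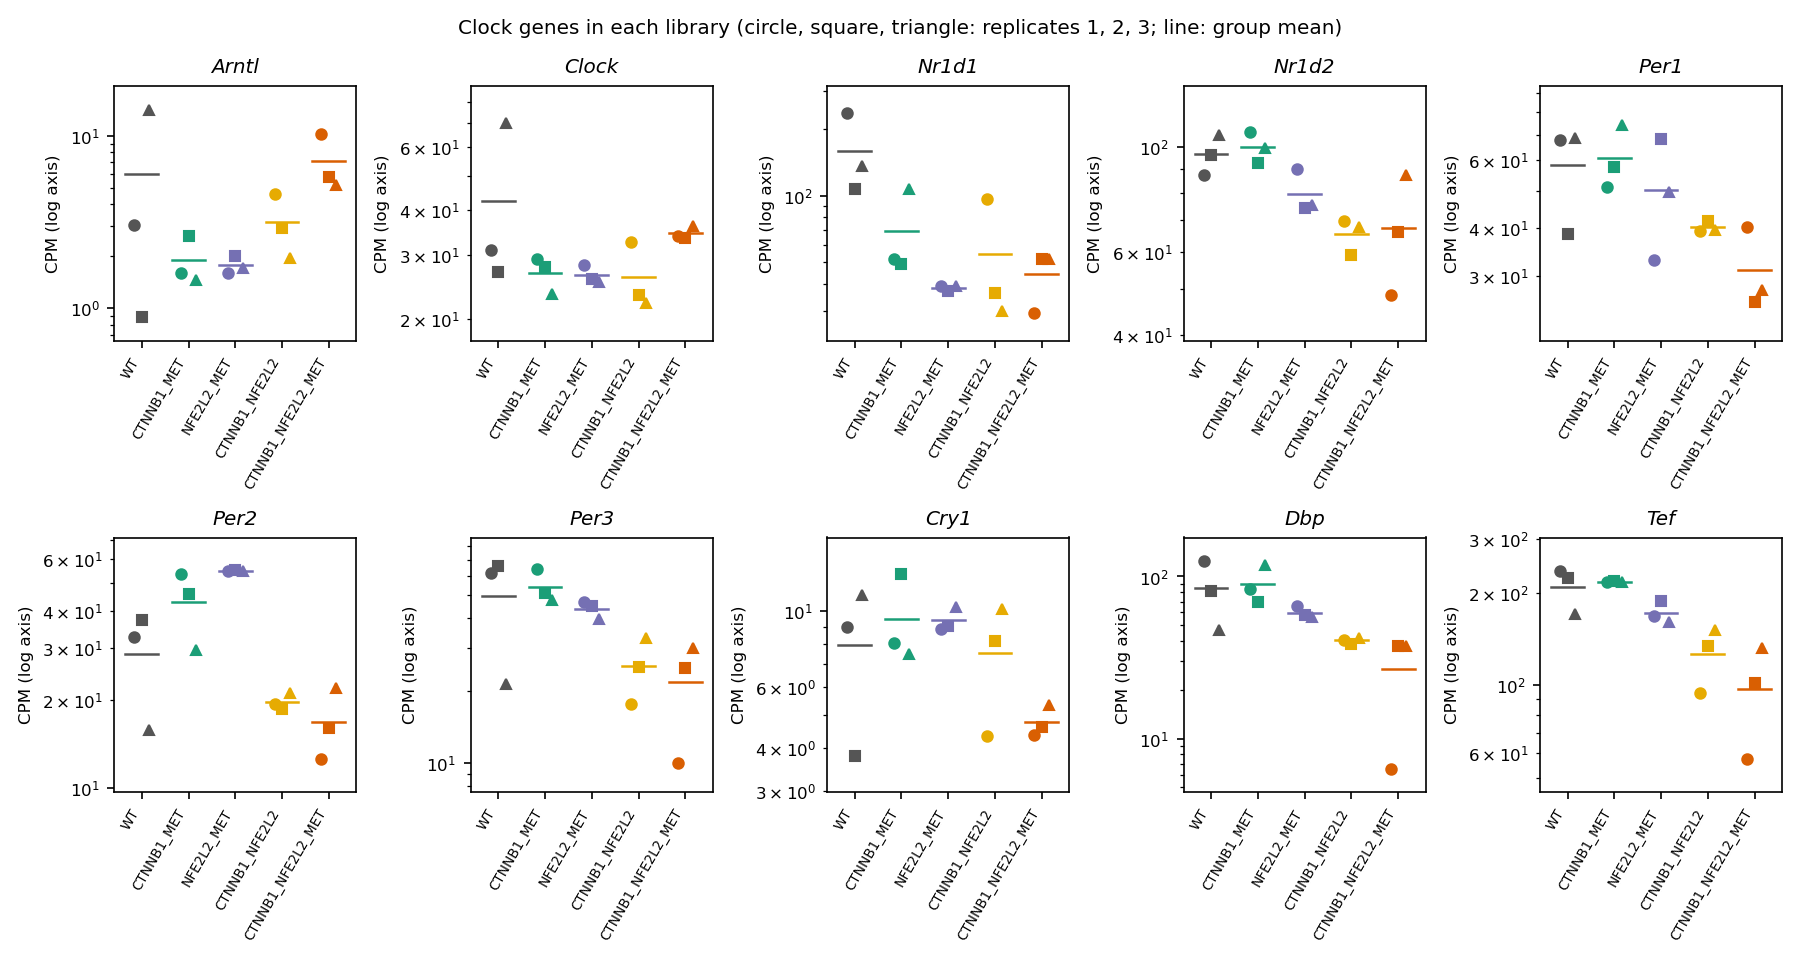
Level of each clock gene in CPM on a log axis in every library, with replicates 1, 2 and 3 as circle, square and triangle and the group mean as a line. Wild-type replicate 3 is the highest library for Arntl (14.1 CPM) and Clock (69.8 CPM), and triple replicate 1 the lowest for Dbp (6.503 CPM), Per3 (9.98 CPM) and Tef (57.8 CPM).

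The nuclear receptor Nr1d1 (chr11:98767932-98775333, minus strand) fell in 3 of the 4 altered groups. Wild-type libraries held 236, 108 and 137 CPM, and triple libraries 29.3, 51.7 and 51.6. NFE2L2-MET gave 39.0, 37.0 and 38.9 CPM, CTNNB1-NFE2L2 97.1, 36.3 and 29.9, and CTNNB1-MET 51.7, 48.9 and 108. Every triple, NFE2L2-MET and CTNNB1-NFE2L2 library was under every wild-type library, whereas CTNNB1-MET replicate 3 reached the lower end of the wild-type range. Nr1d1 was 4.19-fold lower in NFE2L2-MET (log2 -2.07 ± 0.49, adjusted p = 0.0109), 3.63-fold lower in the triple group (-1.86 ± 0.48, 0.00728) and 2.94-fold lower in CTNNB1-NFE2L2 (-1.56 ± 0.48, 0.0183). In CTNNB1-MET the difference was -1.20 ± 0.47 (0.106), passing without CTNNB1-MET replicate 3 (-1.67, 0.0484) or CTNNB1-NFE2L2 replicate 1 (0.0402). The NFE2L2-MET and triple calls held without any 1 library, the triple one being lost only when wild-type replicate 3 and triple replicate 1 were left out together. The CTNNB1-NFE2L2 call was lost without wild-type replicate 1 or CTNNB1-NFE2L2 replicate 2 or 3 (adjusted p up to 0.0734). Of the exonic bases of Nr1d1, 8.55% overlap Thra on the other strand and reads there were not assigned; counting each strand apart and summing gave 1.01 to 1.06 times the count.

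Its paralogue Nr1d2 (chr14:18204054-18239127, minus strand) showed smaller differences. Wild-type libraries held 87.1, 96.0 and 106.2 CPM, triple 48.6, 66.0 and 87.5, and CTNNB1-NFE2L2 69.8, 59.2 and 67.8. CTNNB1-MET libraries gave 108, 92.5 and 99.4 CPM and NFE2L2-MET 89.8, 74.1 and 75.3. The CTNNB1-NFE2L2 libraries all lay under wild type, while triple replicate 3 sat just inside its range. Nr1d2 was 1.43-fold lower in the triple group than in wild type (log2 -0.52 ± 0.16, adjusted p = 0.0153) and 1.47-fold lower in CTNNB1-NFE2L2 (-0.56 ± 0.16, 0.0106). It was also lower in the triple group than in CTNNB1-MET (-0.57 ± 0.16, 0.0137). The first call was lost without wild-type replicate 3 (0.0575) or triple replicate 1 (0.0684), the last without triple replicate 1 (0.0567), and the CTNNB1-NFE2L2 one without CTNNB1-NFE2L2 replicate 2 (0.0503). In NFE2L2-MET, the group with the lowest mean of Nr1d1, the Nr1d2 difference was -0.27 ± 0.16 (0.240). Against that group the triple group passed as lower without triple replicate 3 (-0.48, 0.0222). The ratio of Nr1d1 to Nr1d2 was 1.12 to 2.71 in wild-type libraries and 0.434 to 0.517 in NFE2L2-MET; whether the 2 receptors differed in their response was not tested.

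Among the repressors, Per2 (chr1:91415982-91459324, minus strand) divided the altered groups. NFE2L2-MET libraries held 54.7, 55.0 and 54.7 CPM and CTNNB1-MET 53.3, 45.8 and 29.4. Triple libraries held 12.5, 16.01 and 21.9 CPM and CTNNB1-NFE2L2 19.4, 18.6 and 21.0. Wild-type values were 32.8, 37.2 and 15.8, so replicate 3 fell among the low groups, and the other libraries lay inside the CTNNB1-MET range and under NFE2L2-MET. Per2 was 3.26-fold lower in the triple group than in NFE2L2-MET (log2 -1.70 ± 0.29, adjusted p = 0.000717) and 2.54-fold lower than in CTNNB1-MET (-1.35 ± 0.29, 0.00301). Both held without any 1 library. Against wild type it rose 1.92-fold in NFE2L2-MET (0.94 ± 0.28, 0.0297) and was lower in the triple group (-0.77 ± 0.29, 0.0412). The rise was lost without wild-type replicate 3 (0.0593) or NFE2L2-MET replicate 1 (0.0651), 2 (0.0666) or 3 (0.0706). It was also lost with total-count scaling, with no low-count filter and with only the 2 groups in the fit. The fall was lost in 11 of 15 fits, those without wild-type replicate 1 or 2, triple replicate 1 or 2, CTNNB1-MET replicate 2, or any library of CTNNB1-NFE2L2 or NFE2L2-MET (adjusted p up to 0.184), and without wild-type replicate 3 it was larger (-1.06, 0.00182). Without that library Per2 also passed as lower in CTNNB1-NFE2L2 (-0.83, 0.00874).

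Per3 (chr4:151003652-151044665, minus strand), the period gene with 2 D-boxes in its promoter, was at 61.8, 65.8 and 21.3 CPM in wild type and 9.98, 25.0 and 30.1 in the triple group. CTNNB1-NFE2L2 gave 17.6, 25.2 and 33.2 CPM, CTNNB1-MET 64.2, 51.1 and 47.6, and NFE2L2-MET 46.6, 45.2 and 39.8. As for Per2, wild-type replicate 3 lay within the range of the triple libraries. Per3 was lower in the triple group than in CTNNB1-MET (log2 -1.32 ± 0.43, adjusted p = 0.0345) and wild type (-1.19 ± 0.43, 0.0381). The call against wild type was lost in 9 of 15 fits, those without wild-type replicate 1 or 2, triple replicate 1 or 2, CTNNB1-MET replicate 2, CTNNB1-NFE2L2 replicate 2 or any NFE2L2-MET library (up to 0.141). The call against CTNNB1-MET was lost without triple replicate 1 or 2 or any CTNNB1-MET library (up to 0.105). Without wild-type replicate 3, Per3 passed as lower in CTNNB1-NFE2L2 than in wild type (-1.33, 0.00988), as it did without triple replicate 1 (0.0436), and as lower in the triple group than in NFE2L2-MET (-1.01, 0.0346). In every NFE2L2-MET library Per3 was under Per2 in CPM, at 0.728 to 0.851 of it, and in every wild-type library above, at 1.34 to 1.89.

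Per1 (chr11:69095217-69109960, plus strand), the period gene that also responds to acute signals, held 67.6, 38.5 and 68.5 CPM in wild type and 40.1, 25.7 and 27.6 in the triple group. CTNNB1-MET gave 51.2, 57.5 and 74.1 CPM, CTNNB1-NFE2L2 39.1, 41.6 and 39.5, and NFE2L2-MET 33.0, 68.3 and 49.5. Triple replicate 1 was above the lowest wild-type library, and all triple libraries were under CTNNB1-MET. Per1 was 1.87-fold lower than in wild type (log2 -0.90 ± 0.27, adjusted p = 0.0144) and 1.96-fold lower than in CTNNB1-MET (-0.97 ± 0.27, 0.0146). The first was lost without wild-type replicate 1 (0.0541) or 3 (0.0560) or triple replicate 2 (0.0597) or 3 (0.0537), the other without triple replicate 2 or 3 or CTNNB1-MET replicate 3 (up to 0.0635). Both calls were also lost without the 3 added libraries. Per1 passed as lower in CTNNB1-NFE2L2 than in wild type without wild-type replicate 2 (-0.75, 0.0307). It passed as lower in the triple group than in NFE2L2-MET without wild-type replicate 2 (0.0410), triple replicate 1 (0.0442) or NFE2L2-MET replicate 1 (0.0192). Cry1 (chr10:85131700-85185064, minus strand), the cryptochrome whose upstream stretch is printed above, held 8.99, 3.80 and 11.2 CPM in wild type and 4.35, 4.62 and 5.35 in the triple group. CTNNB1-MET gave 8.09, 12.8 and 7.52 CPM, CTNNB1-NFE2L2 4.35, 8.20 and 10.2, and NFE2L2-MET 8.90, 9.05 and 10.3. The triple libraries were under all CTNNB1-MET and NFE2L2-MET libraries but inside the wild-type range. Cry1 was lower than in CTNNB1-MET (-0.98 ± 0.36, 0.0469), a call kept in 4 of 15 fits with 1 library left out (adjusted p up to 0.191); it was lost without wild-type replicate 1, CTNNB1-NFE2L2 replicate 2 or any triple, CTNNB1-MET or NFE2L2-MET library. The call was also lost without the 3 added libraries. Against NFE2L2-MET Cry1 missed the threshold (-0.98 ± 0.35, 0.0510), passing without wild-type replicate 2 or 3, CTNNB1-MET replicate 2 or CTNNB1-NFE2L2 replicate 1 or 3 (adjusted p 0.0128 to 0.0462). Against wild type it was -0.73 ± 0.36 (0.104), again passing without wild-type replicate 2 (-1.07, 0.00828).

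Of the outputs, Tef (chr15:81802421-81826863, plus strand) was called in 4 of the 7 comparisons. Wild-type libraries held 235, 223 and 170 CPM and CTNNB1-MET 217, 219 and 218. Triple libraries held 57.8, 102 and 132 CPM, CTNNB1-NFE2L2 94.5, 134 and 151, and NFE2L2-MET 168, 189 and 161. All triple and CTNNB1-NFE2L2 libraries were under all wild-type, CTNNB1-MET and NFE2L2-MET libraries. Tef was 2.23-fold lower in the triple group than in CTNNB1-MET (log2 -1.16 ± 0.24, adjusted p = 0.00223), 2.15-fold lower than in wild type (-1.11 ± 0.24, 0.00168) and 1.77-fold lower than in NFE2L2-MET (-0.82 ± 0.24, 0.0181). Without triple replicate 1 the difference from wild type was -0.84 (0.00209), and without wild-type replicate 3 it was -1.23 (0.00170). The call against NFE2L2-MET was lost without NFE2L2-MET replicate 2 (0.0621). Tef also fell in CTNNB1-NFE2L2 against wild type (-0.73 ± 0.24, 0.0217), a call lost without wild-type replicate 1 or 2 or CTNNB1-NFE2L2 replicate 1 (up to 0.0892).

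Dbp (chr7:45705088-45710203, plus strand), a bZIP factor related to Tef, was at 125, 81.5 and 46.6 CPM in wild type and at 6.503, 37.3 and 37.2 in the triple group. CTNNB1-MET gave 83.4 and 69.7 CPM in replicates 1 and 2 and more, on 2241 reads, in replicate 3, CTNNB1-NFE2L2 40.6, 38.6 and 41.9, and NFE2L2-MET 66.1, 57.8 and 55.8. The triple libraries lay under those of every other group, triple replicate 1 far under the rest. Dbp was 3.33-fold lower in the triple group than in CTNNB1-MET (log2 -1.74 ± 0.52, adjusted p = 0.0222) and 3.12-fold lower than in wild type (-1.64 ± 0.52, 0.0199). Without triple replicate 1 the difference from wild type was -1.18 (0.0123). It missed the threshold without wild-type replicate 1 (0.0813), and the call against CTNNB1-MET was lost without CTNNB1-MET replicate 3 (0.0749). The latter call was also lost without the 3 added libraries. In CTNNB1-NFE2L2 all 3 Dbp libraries were under wild type too, but the difference of -1.06 ± 0.51 did not pass (0.105), except without triple replicate 1 (0.00904). Of the exonic bases of Dbp, 18.0% overlap Sphk2 on the other strand. Counting each strand apart and summing gave 1.76 to 2.23 times the deposited count, so its absolute level depends on the counting. Because reads fell evenly on both strands, that sum can also hold reads of Sphk2 from the overlap. With the summed count, both triple calls of Dbp still passed.

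Whole ranges, read without the test, parted differently from the calls. Between triple and CTNNB1-MET the libraries of 9 of the 10 genes did not overlap, where 49.6% of all genes did not. Between triple and NFE2L2-MET it was 7 (47% of all genes) and between triple and wild type 3, namely Nr1d1, Dbp and Tef (54.9%). Between triple and CTNNB1-NFE2L2 it was 3 (43.7%), between wild type and CTNNB1-NFE2L2 4 (54%), between wild type and NFE2L2-MET 2 (37.2%) and between wild type and CTNNB1-MET 0 (32.7%). The counts against wild type are thus no larger than the share of all genes. In the order of the 5 group means, no neighbouring pair differed at an adjusted p under 0.05 for any of the 10 genes. The triple group had the lowest mean of Per1, Per2, Per3, Cry1, Dbp and Tef, and the highest of Arntl.

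Compared per kilobase of countable exon, so that genes can be set beside each other, wild-type means ran from 57.0 CPM per kb for Nr1d1 through Dbp (34.4), Tef (26.7), Nr1d2 (17.8), Per1 (10.3), Per3 (5.17), Per2 (4.89), Clock (3.10) and Cry1 (2.39) to Arntl (0.798). Arntl was the lowest of the 10 in all 5 groups. In the unstranded counts, Nr1d1 led in wild type, the triple group (15.7) and CTNNB1-NFE2L2 (19.3), and Dbp led in CTNNB1-MET (36.7) and NFE2L2-MET (24.4). In NFE2L2-MET, Nr1d1 was at 13.6 CPM per kb, behind Dbp, Tef (21.9) and Nr1d2 (14.7). The top of this order turned with the counting: with reads summed over both strands, Dbp was above Nr1d1 in all 5 groups, at 55.4 against 51.6 CPM per kb in wild type, 17.3 against 14.4 in the triple group and 26.4 against 17.9 in CTNNB1-NFE2L2. Summed strands can also count reads of Sphk2 for Dbp, and of Thra for Nr1d1, where the genes overlap. These ranks were not tested.

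Ratios of a target to Arntl within a library do not depend on depth, and they set the arms of the loop side by side. They use the unstranded counts, so those of Dbp leave out its reads in the overlap with Sphk2. The ratio of Dbp to Arntl was 41.4, 91.6 and 3.30 in the wild-type libraries and 0.632, 6.47 and 7.14 in the triple ones. It was 52.3, 26.6 and 80.0 in CTNNB1-MET, 8.85, 13.2 and 21.5 in CTNNB1-NFE2L2 and 41.5, 28.9 and 32.5 in NFE2L2-MET. Wild-type replicate 3 fell inside the triple range, and the other wild-type libraries inside or above the range of CTNNB1-MET. The ratio of Per2 to Arntl was 10.9, 41.8 and 1.12 in wild type, 1.22, 2.78 and 4.21 in the triple group, and 34.4, 27.6 and 31.8 in NFE2L2-MET. The ratio of Nr1d1 to Arntl was 78.3, 121.1 and 9.70 in wild type, 2.85, 8.96 and 9.91 in the triple group and 24.5, 18.5 and 22.6 in NFE2L2-MET. For each of these 3 ratios all triple libraries were under all libraries of CTNNB1-MET and NFE2L2-MET. The ratios share Arntl as denominator, which by itself parted the triple libraries from both groups. Nr1d1 alone overlapped with both, at a mean of 44.2 CPM in the triple group and 38.3 in NFE2L2-MET. In wild-type replicate 3 high Arntl and Clock stood with low Per2, Per3, Dbp and Tef. Per1, Cry1 and Nr1d2, however, were also highest there among the wild-type libraries, and Nr1d1 lay between the others.

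**Figure D3:**
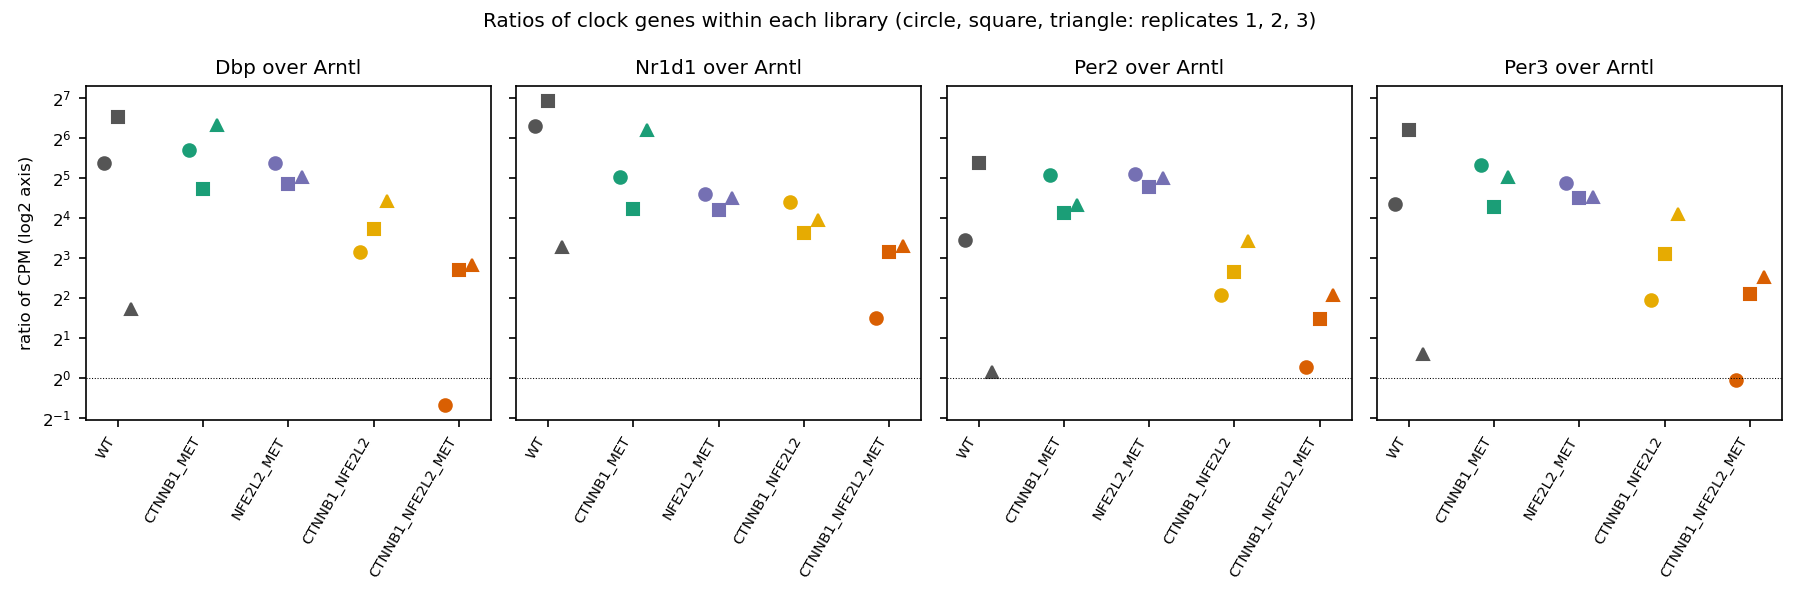
Ratio of Dbp, Nr1d1, Per2 and Per3 to Arntl in each library, on a log2 axis, by group. Wild-type replicate 3 lies at 3.30 for Dbp, next to the triple libraries (0.632 to 7.14) and away from the other wild-type libraries (41.4 and 91.6).

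The clock genes varied more between libraries of a group than most genes. Pooled over the 5 groups, the within-group SD of log2 CPM had a median of 0.45 over the 10 members and of 0.21 over all tested genes. Arntl had the widest spread (0.95, percentile 97.6 of all genes), then Dbp (0.74, percentile 95.5), Per3 (0.60, percentile 91.8) and Nr1d1 (0.60, percentile 91.5). Nr1d2 was near the middle of all genes (0.22, percentile 52.3). By group the members' median was 0.69 in wild type against 0.22 over all genes, and 9 of 10 members exceeded that. It was 0.45 in the triple group (8 of 10 above its all-gene median of 0.18) and 0.12 in NFE2L2-MET, where the all-gene median was 0.16 and 1 member, Per1, exceeded it. Wild-type replicate 3 differed from the mean of the other wild-type libraries by 3.004 on the log2 scale for Arntl, 1.27 for Clock, -1.13 for Per2, -1.58 for Per3 and -1.11 for Dbp. Triple replicate 1 differed from the other triple libraries by -2.50 for Dbp, -1.45 for Per3 and -1.01 for Tef. CTNNB1-NFE2L2 replicate 1 stood out for Nr1d1 (1.56) and Cry1 (-1.05), CTNNB1-MET replicate 3 for Nr1d1 (1.10) and wild-type replicate 2 for Cry1 (-1.37). The part that harvest time had in this spread, and in the differences between groups, was not tested, since the labels give no time.

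**Figure D4:**
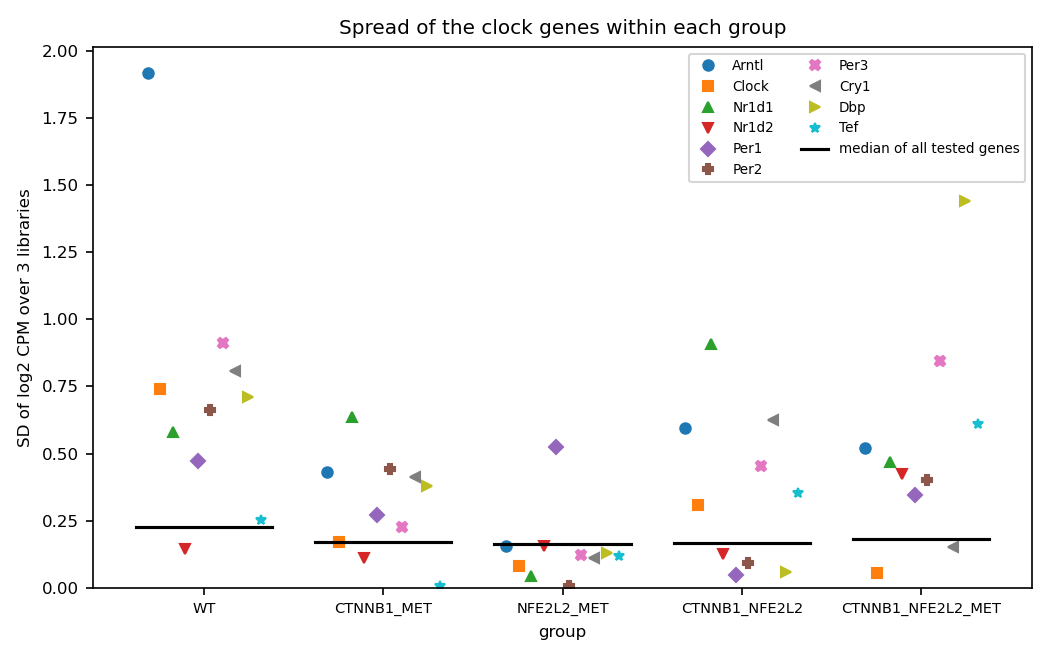
Standard deviation of log2 CPM over the 3 libraries of each group, 1 point per clock gene, with a line at the median over all tested genes. Of the members, 9 of 10 lie above the line in wild type and 1 of 10 in NFE2L2-MET.

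Other genes of the loop moved with the members in the triple group. Of 10 listed, 9 were tested, and 8 fell against wild type and 0 rose, where 23.4% of all genes fell; the count was also 8 without wild-type replicate 3 and without triple replicate 1. Ciart (Chrono), a repressor of the dimer, held 29.8, 14.5 and 8.72 CPM in wild type and 2.41, 3.56 and 5.16 in the triple group, without overlap (log2 -2.24, adjusted p = 0.000944). The E-box repressors Bhlhe41 (-2.32, 0.00232) and Bhlhe40 (-0.55, 0.0205) fell too. So did the cryptochrome Cry2 (-0.93, 0.000587), the D-box repressor Nfil3 (-1.24, 0.00301) and the D-box activator Hlf (-0.60, 0.00574). Rora (-0.80, 0.00151), which activates Arntl through the RORE, was also lower. Npas2, which can take the place of Clock, differed by 1.25 and was not called (0.264), on 1, 4 and 17 reads in wild type and 47, 16 and 5 in the triple group.

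In CTNNB1-NFE2L2, 6 of the 9 fell against wild type and 0 rose, among them Rora (-1.01, 0.000265), Ciart (-1.95, 0.00241) and Bhlhe41 (-2.01, 0.00572), with 24.2% of all genes lower; without wild-type replicate 3 it was 5. In NFE2L2-MET, 2 fell and 1 rose, with 9.89% of all genes lower and 13.5% higher. Those that fell were Rora (-0.58, 0.0262) and Cry2 (-0.56, 0.0342), and without wild-type replicate 3 the counts were 0 lower and 0 higher. In CTNNB1-MET 0 were called by edgeR's quasi-likelihood test (17.2% of all genes called) and 2 had an unadjusted p under 0.05. Without wild-type replicate 3, 1 was lower. Against CTNNB1-MET, the triple group was lower in 5, including Ciart (-2.68, 0.000526), and higher in 0, with 15.4% of all genes lower. Against NFE2L2-MET the triple group was lower in 3 and higher in 1, with 14.3% of all genes lower and 16.4% higher. Among the lower were Bhlhe40 (-0.75, 0.00603) and Ciart (-1.69, 0.0112), and the higher one was Npas2 (2.95, 0.0482). The Npas2 call was lost without triple replicate 1, the library with 47 of its reads.

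**Figure D5:**
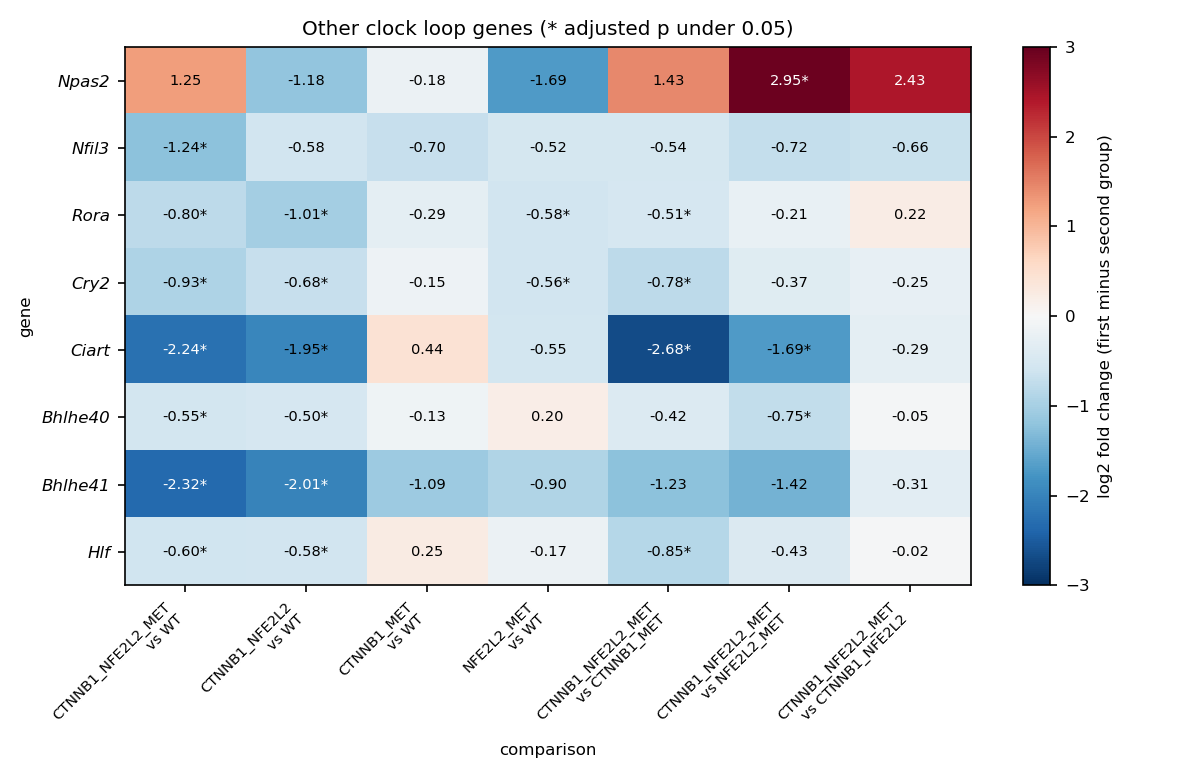
Log2 fold change of 8 further loop genes in 7 comparisons as a colour scale, with an asterisk where the adjusted p was under 0.05. Against wild type the triple group has 7 asterisks, all on lower genes, and CTNNB1-MET has 0.

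Genes that modify or degrade clock proteins did not move one way. Of 17 tested, 4 rose and 6 fell in the triple group against wild type, 2 and 8 in CTNNB1-NFE2L2, 3 and 2 in CTNNB1-MET and 1 and 4 in NFE2L2-MET. Without wild-type replicate 3 these counts were 3 and 3, 2 and 6, 3 and 1, and 1 and 1. Without triple replicate 1 the triple group had 2 and 4. The called share of the list was 58.8% in the triple group and in CTNNB1-NFE2L2 and 29.4% in the others, beside 49.9%, 48.7%, 17.2% (CTNNB1-MET) and 23.4% (NFE2L2-MET) of all genes. Usp7, a deubiquitinase of cryptochromes, was lower in the triple group (-0.41), CTNNB1-NFE2L2 (-0.53) and NFE2L2-MET (-0.45). Its mean was also lower in CTNNB1-MET, at 65.5 CPM against 81.1 in wild type. Timeless, which also works at replication forks, was higher in the triple group (0.88), CTNNB1-MET (0.89) and NFE2L2-MET (0.73). Usp2, a deubiquitinase whose own transcript is rhythmic, was lower in the triple group than in wild type (-1.06, adjusted p = 0.0380), CTNNB1-MET (-1.51) and CTNNB1-NFE2L2 (-1.24).

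Of 18 genes known as rhythmic liver outputs, 1 rose and 9 fell in the triple group against wild type (median -0.74), or 0 and 9 without wild-type replicate 3 and 0 and 8 without triple replicate 1. The glucose transporter Slc2a2 averaged 276 CPM in wild type and 91.6 in the triple group (log2 -1.59, adjusted p = 1.3e-06). Upp2, a uridine phosphorylase, averaged 537 and 89.2 CPM (-2.59), and the lipid regulators Lpin1 (-1.67) and Ppara (-0.94) were also lower. Elovl3, a fatty acid elongase, held 111.4, 78.7 and 911 CPM in wild type, replicate 3 being far above the others, and 5.02, 23.6 and 21.5 in the triple group (-4.46, 0.00618). Nampt, the NAD salvage enzyme, rose in the triple group (0.56), CTNNB1-NFE2L2 (0.86) and NFE2L2-MET (0.79). CTNNB1-NFE2L2 had 5 higher and 7 lower, with Wee1, a cell cycle kinase, among the higher (1.18, 0.0245). CTNNB1-MET had 1 higher, Rgs16 (1.59, 0.0432), and NFE2L2-MET 2 higher and 2 lower. Without wild-type replicate 3 these counts were 3 and 6 in CTNNB1-NFE2L2, 0 and 0 in CTNNB1-MET and 1 and 1 in NFE2L2-MET. Of the list, 55.6% was called in the triple group, 66.7% in CTNNB1-NFE2L2, 5.56% in CTNNB1-MET and 22.2% in NFE2L2-MET, beside 49.9%, 48.7%, 17.2% and 23.4% of all genes. Against CTNNB1-MET 8 were lower in the triple group and 0 higher (15.4% of all genes lower), and against NFE2L2-MET 5 and 0 (14.3%), or 3 and 0 without triple replicate 1.

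The genes whose levels ran most like the members over the 15 libraries were found by Pearson's r of log2 CPM among 8430 genes outside the lists, as a description that takes in group differences. For Dbp they included Adra1b (0.93), Cyp4f14 (0.90), Inmt (0.89) and D930015E06Rik (0.89). Adra1b, an adrenergic receptor, averaged 110.9 ± 16.3 CPM in wild type, 33.9 ± 15.9 in the triple group and 98.2 ± 8.76 in CTNNB1-MET (SD, n = 3). For Arntl they were Cdc42bpa (0.91), Kif2a (0.85), Mtmr3 (0.83), Nek7 (0.83) and Stk24 (0.83).

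Marker genes of cell types and of proliferation also differed from wild type. Against wild type, edgeR called 49.9% of all genes in the triple group, 48.7% in CTNNB1-NFE2L2, 17.2% in CTNNB1-MET and 23.4% in NFE2L2-MET. Proliferation markers rose in 6 of 6 in the triple group, CTNNB1-NFE2L2 and CTNNB1-MET and in 2 of 6 in NFE2L2-MET. Their summed level was 13.02 to 16.5 CPM in wild type, 165 to 225 in the triple group, 137 to 165 in CTNNB1-NFE2L2, 52.3 to 73.9 in CTNNB1-MET and 17.6 to 28.0 in NFE2L2-MET. Macrophage and Kupffer markers rose in 6 of 6 in the triple group, CTNNB1-NFE2L2 and NFE2L2-MET and in 3 of 6 in CTNNB1-MET, from 177 to 196 CPM in wild type to 333 to 490 in the triple group. Hepatocyte markers fell in 5 of 6 in the triple group and 6 of 6 in CTNNB1-NFE2L2. Their sums there were 65267 to 69004 and 28094 to 36989 CPM against 73369 to 96992 in wild type. The hepatocyte sums were 126953 to 136053 CPM in CTNNB1-MET (2 markers higher, 0 lower) and 129683 to 171598 in NFE2L2-MET (2 higher, 1 lower). Of 5 tested T and NK cell markers 3 rose in the triple group, of 5 B and plasma cell markers 3, of 6 endothelial markers 3 rose and 2 fell, of 6 stellate markers 1 rose and 3 fell, and of 5 cholangiocyte markers 2 rose and 2 fell. Of 5 erythroid markers 4 were at 0 in every library. The part of these shifts in the clock gene results was not tested.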

How the data were processed

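Read counts per gene, deposited by the authors, were whole numbers made with STAR after Trimmomatic on mm10, per the submitters' processing notes; no source used here gives their versions or the annotation. The unstranded count column was used, since the first strand column held 49.7% to 49.9% of strand-assigned reads. Rows naming no gene stayed out of library sizes: unmapped reads were 8.69% to 25.9% of the 22826081 to 30064163 reads per library, multimapping reads 4.81% to 6.45%, reads on no feature 6.85% to 9.74% and ambiguous reads 1.48% to 1.96%. Groups came from the treatment labels.

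With edgeR 4.0.16 (R 4.3.3, limma 3.58.1), genes passing filterByExpr were TMM-scaled and fitted by the robust quasi-likelihood model over all 15 libraries, with no covariate. P-values were Benjamini-Hochberg adjusted over 14098 genes (threshold 0.05). SEs are the log2 fold change divided by the root of F. CPM are TMM-scaled, and log2 CPM used a prior count of 2. Replicates of a group differed by more than sampling noise in all 15 pairs (chi-square per gene 14.1 to 115.6, genes of 20 or more reads). On simulated data for the triple group against wild type (13868 genes), a 2-fold change was called in 61 of 98 genes and a 4-fold change in 89 of 98, all with the right sign, and 4 of 13672 unchanged genes. Far fewer genes were changed there than were called in the data, and they were drawn at random. These rates therefore do not give the power for the clock genes.

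The members and gene lists were chosen with earlier results of these data known. Genes named beside the members are, per related list, the 3 with the smallest p in each comparison and a fixed set of loop and output genes; for likeness, the 5 highest r among genes of mean log2 CPM of at least 3. Some genes named by this rule, and their values, are not reported here. Positions come from GENCODE M21 and promoters from RefSeq. Alternatives were RLE and total-count scaling, no low-count filter, DESeq2 1.42.0, only the groups compared, summed strand columns, a term for the added libraries, leaving those out, leaving out each library and, chosen after seeing the data, leaving out wild-type replicate 3 and triple replicate 1 together.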

Additional observations from a re-analysis of the deposited data

How the results depend on the processing

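The count of clock genes called moved by more than 1.5 times under these settings. For triple against wild type, 7 became 4 with total-count scaling and 3 with only the 2 groups in the fit. For CTNNB1-MET against wild type, 0 became 1 without the added libraries. For CTNNB1-NFE2L2 against wild type, 3 became 1 with total-count scaling, 5 without the added libraries and 6 without wild-type replicate 3 and triple replicate 1 together. For NFE2L2-MET against wild type, 2 became 1 with no filter and 1 with only the 2 groups. For triple against NFE2L2-MET, 2 became 5 with DESeq2, 4 with only the 2 groups, 5 without the added libraries and 6 without both named libraries. For triple against CTNNB1-NFE2L2, 0 became 2 without the added libraries. Over all genes, only the 2 groups gave 1505 in place of 2429 for CTNNB1-MET and 2115 in place of 3303 for NFE2L2-MET against wild type, and total-count scaling 6928 in place of 4325 for triple against NFE2L2-MET. Leaving out 1 library gave 3 to 7 members (6092 to 7086 of all genes) for triple against wild type, 0 to 2 (1294 to 2588) for CTNNB1-MET, 1 to 5 (5700 to 6959) for CTNNB1-NFE2L2, 1 to 4 (2137 to 3444) for NFE2L2-MET, 1 to 6 (3241 to 4574) for triple against NFE2L2-MET, 3 to 9 (3630 to 5077) against CTNNB1-MET and 0 to 2 (2259 to 3842) against CTNNB1-NFE2L2. The cause was not tested. Total-count scaling moved the median of all genes to 0.22, 0.17 and -0.13 in triple, CTNNB1-NFE2L2 and NFE2L2-MET against wild type and to 0.38 and 0.26 in triple against NFE2L2-MET and CTNNB1-MET; the higher share of called genes went from 53.1%, 50.3%, 57.8%, 53.5% and 54.5% to 73.4%, 67.9%, 35.3%, 88.5% and 82.7%. Signs turned only in values that had not passed the test. Without the added libraries, or without both named libraries, Clock in triple against wild type became 0.22 or 0.27; in CTNNB1-MET against wild type Per3 -0.15 or -0.23, Dbp -0.43 or -0.19 and Tef -0.0758 or -0.0752; in CTNNB1-NFE2L2 against wild type Arntl 0.73 in each and Cry1 0.26 in each. Without the added libraries Arntl in CTNNB1-MET against wild type became 0.13 and Nr1d2 in triple against CTNNB1-NFE2L2 -0.20. Cry1 in CTNNB1-NFE2L2 against wild type became 0.11 with total-count scaling and 0.0187 with a term for the added libraries, which gave -0.0749 for Nr1d2 in triple against CTNNB1-NFE2L2; Per3 there was 0.12 without both named libraries, and Nr1d2 in triple against NFE2L2-MET 0.12 with total-count scaling. Leaving out 1 library turned 16 results, whose ranges were, against wild type, Arntl -0.28 to 1.89 and Clock -0.54 to 0.26 in triple; Cry1 -0.11 to 0.58, Dbp -0.19 to 0.49, Nr1d2 -0.0177 to 0.13, Per1 -0.17 to 0.20, Per3 -0.23 to 0.38 and Tef -0.0753 to 0.14 in CTNNB1-MET; Arntl -1.43 to 0.73 and Cry1 -0.40 to 0.26 in CTNNB1-NFE2L2; Cry1 -0.11 to 0.57, Per1 -0.49 to 0.0191 and Per3 -0.54 to 0.0776 in NFE2L2-MET; and, in triple against CTNNB1-NFE2L2, Nr1d1 -0.59 to 0.42, Nr1d2 -0.20 to 0.23 and Per3 -0.53 to 0.12. Of the other single-gene values under the 9 settings, 542 kept direction and side of the threshold, 36 newly passed and 33 no longer did. No paired analysis was possible because replicate numbers follow accession order and no label ties a library to one of another group; the added mark comes from file names and was used as a term. Arntl and Npas2 rest on few reads, which limits their precision.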

Other observations

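Genes that respond to glucocorticoid, feeding, temperature and acute stress, which are inputs to the liver clock, were read against the share of all genes called, 49.9% in the triple group, 48.7% in CTNNB1-NFE2L2, 17.2% in CTNNB1-MET and 23.4% in NFE2L2-MET against wild type. In the triple group 33.3% of the glucocorticoid list, 83.3% of the fasting and feeding list and 37.5% each of the temperature and immediate early lists were called; in CTNNB1-NFE2L2 these shares were 33.3%, 75%, 50% and 75%. Of 9 glucocorticoid response genes, 3 fell in the triple group against wild type and 0 rose (2 and 1 without wild-type replicate 3; 2 and 0 without triple replicate 1), 3 fell in CTNNB1-NFE2L2, 1 in CTNNB1-MET and 1 in NFE2L2-MET. Klf9, a glucocorticoid-induced repressor, averaged 139 CPM in wild type and was lower in all 4 groups (log2 -1.36 in the triple group, -0.59 in CTNNB1-MET, -1.36 in CTNNB1-NFE2L2 and -1.21 in NFE2L2-MET). The single CTNNB1-MET call was lost without wild-type replicate 3. Tat, tyrosine aminotransferase, fell in the triple group (-2.25) and the receptor Nr3c1 in the triple group (-0.40) and CTNNB1-NFE2L2 (-0.85). Of 12 fasting and feeding genes, 3 rose and 7 fell in the triple group, 3 and 6 in CTNNB1-NFE2L2, 1 and 0 in CTNNB1-MET and 1 and 2 in NFE2L2-MET; without wild-type replicate 3 these were 3 and 6, 2 and 5, 2 and 1, and 2 and 1. Genes of both states were lower in the triple group: Srebf1 (-1.43), induced by feeding, and Pck1 (-2.58), induced by fasting. Igfbp1, also induced by fasting, rose from a mean of 25.4 CPM in wild type to 499 in the triple group (4.29).

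Of 8 temperature-responsive genes, 2 rose and 1 fell in the triple group and 4 rose in CTNNB1-NFE2L2, without change when wild-type replicate 3 was left out. The cold-inducible Rbm3 rose in the triple group (1.199) and the cold-inducible Cirbp fell (-0.63), and also fell in CTNNB1-MET (-0.57) and NFE2L2-MET (-1.04). Hspb1, a small heat shock protein, rose in the triple group (1.46) and CTNNB1-NFE2L2 (3.02). Of 8 immediate early genes, 5 rose and 1 fell in CTNNB1-NFE2L2 and 2 rose and 1 fell in the triple group, with Atf3 at 4.49 and 3.37 and Jun at 2.07 and 1.32. In NFE2L2-MET edgeR's quasi-likelihood test called 0 of the 8, and 2 had an unadjusted p under 0.05.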
